A study of Homo sapiens with 18 samples.

Results

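The windows described here are the places where APOBEC3B fused to green fluorescent protein (A3B-eGFP) was called on chromatin after induction and where the same cells without induction gave no call, set against the places where RNA/DNA hybrids were called. A3B-eGFP ChIP-seq was done with an anti-GFP antibody on MCF10A-TREx-A3B-eGFP cells, MCF10A being a nontumorigenic breast epithelial line, after doxycycline at 1 µg/ml for 24 h, with the vehicle DMSO (IP-GFP_DOX+_DMSO). The background list came from the same engineered cells with DMSO and no doxycycline (IP-GFP_DOX-_DMSO, here DOX-). Hybrids were mapped by DRIP-seq with the S9.6 antibody in WT MCF10A cells in DMSO (DRIP_WT_DMSO), which carry no A3B-eGFP and were not given doxycycline. Every condition had 1 deposited library, so no difference below has a replicate check, and the 95% Wilson intervals cover counting error over windows or genes only. ChIP cells were crosslinked and DRIP cells were not, so cell line, induction and protocol differ together between the assays and cannot be told apart. The cells were a doxycycline-driven overexpression model, and the list says nothing of untagged A3B.

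Each list gives 500 bp windows centred on a summit, the point of highest signal in a called peak, with the pileup (the number of fragments over the summit) and the fold enrichment over the matching input. Of 5945 windows with doxycycline, 1602 overlapped a DOX- window and were left out, and the remaining 4343 are called A3B-eGFP windows here. These are 4343 of 774635 windows in the 9 lists of the series. They came from 3269 called peaks, of which 2681 gave a single window, and neighbouring windows of a broad peak share their reads. Among the A3B-eGFP windows, 928 (21.4%) lay within 10 kb of a DOX- window, and 339 shared a called peak with a window that was left out. The strongest calls were concentrated there, since 17 of the 20 windows with the highest fold enrichment lay within 10 kb of a DOX- window. Values are therefore also given for the 3415 windows over 10 kb from every DOX- window. On the DRIP side there were 91894 windows, covering 1.49% of chromosomes 1 to 22 and X.

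A3B belongs to the APOBEC3 family of enzymes, which convert cytosine to uracil in single-stranded DNA and for A3B prefer a cytosine that follows a thymine. An R-loop forms when RNA pairs with its DNA template behind the polymerase and leaves the other strand single-stranded. R-loops are known to be frequent near transcription starts with an excess of G over C on the coding strand and near transcript ends, and they are resolved by RNase H enzymes and helicases. S9.6 binds the RNA/DNA hybrid itself, not the displaced strand.

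The sequences that follow show the middle of A3B-eGFP windows over 10 kb from DOX- windows that hold a GC box or an AP-1 motif, chosen by fold enrichment, and of a strong DRIP window without A3B-eGFP for contrast. Each is the reference plus strand (hg38), 80 bases on both sides of the summit, and capitals mark a GC box (GGGCGG or CCGCCC) or an AP-1 motif (TGANTCA). The MAPK8IP3 stretch is chr16:1705836-1705996, 279 bp before the MAPK8IP3 start, with a fold enrichment of 4.66. The CPM stretch is chr12:68865455-68865615, intronic, at 6.40. The HLA-C stretch is chr6:31299657-31299817, outside protein-coding genes and 27645 bp from the HLA-C start, at 5.25. The PABPN1 stretch is chr14:23321028-23321188, 349 bp from the PABPN1 start and intronic, at 4.34. Its summit is assigned to BCL2L2-PABPN1 as well as PABPN1, so intronic need not mean an intron of PABPN1. No DRIP window overlapped the window of this stretch, but the nearest DRIP summit was only 549 bp away. The RPL22L1 stretch is chr3:170867222-170867382, intronic, with a DRIP fold enrichment of 70.8 and no A3B-eGFP window overlapping its DRIP window. The contrast holds for this window and not for the gene. RPL22L1 held 2 A3B-eGFP windows elsewhere, both with summits in untranslated exon sequence, and 1 of the 2 overlapped a DRIP window.
MAPK8IP3 promoter, with DRIP: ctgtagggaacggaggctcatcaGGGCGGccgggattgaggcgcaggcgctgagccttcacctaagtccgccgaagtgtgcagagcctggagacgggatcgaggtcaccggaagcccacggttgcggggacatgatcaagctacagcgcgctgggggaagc
CPM intron, without DRIP: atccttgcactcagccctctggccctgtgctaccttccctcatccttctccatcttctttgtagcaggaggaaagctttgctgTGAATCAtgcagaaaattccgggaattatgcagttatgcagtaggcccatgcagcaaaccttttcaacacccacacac
HLA-C flank, without DRIP: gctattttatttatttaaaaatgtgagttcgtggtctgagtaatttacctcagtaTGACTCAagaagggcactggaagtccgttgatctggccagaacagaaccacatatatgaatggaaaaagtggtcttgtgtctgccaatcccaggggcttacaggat
PABPN1 promoter, without DRIP: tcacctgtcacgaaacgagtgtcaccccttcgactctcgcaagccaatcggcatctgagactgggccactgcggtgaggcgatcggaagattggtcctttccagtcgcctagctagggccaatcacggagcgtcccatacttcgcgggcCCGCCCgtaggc
RPL22L1 intron, DRIP without A3B-eGFP: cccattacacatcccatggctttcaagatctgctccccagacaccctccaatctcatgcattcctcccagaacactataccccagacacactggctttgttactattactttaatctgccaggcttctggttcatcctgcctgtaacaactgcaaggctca

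A DRIP window overlapped 1807 of the 4343 A3B-eGFP windows by at least 1 bp, which is 41.6% (40.1 to 43.1%), and 2536 had no DRIP window. Among the 4040 DOX- windows, 1494 overlapped one, 37.0% (35.5 to 38.5%). Over 10 kb from DOX- windows the share was 43.3% (41.6 to 44.9%), against 35.5% (32.4 to 38.6%) within 10 kb. The share in the DOX- list was thus not far below that in the A3B-eGFP list, and the windows nearest to DOX- windows had the lower share. From the side of the hybrids the overlap was small: 1697 of 91894 DRIP windows had an A3B-eGFP window (1.85%, 1.76 to 1.94%), and 1317 had a DOX- window (1.43%).

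Over all A3B-eGFP windows, the difference from the DOX- list was largest at promoters. A promoter summit here lies no further than 2 kb from a protein-coding gene's first annotated start. There 555 of 1098 A3B-eGFP windows overlapped a DRIP window (50.5%, 47.6 to 53.5%), against 114 of 293 DOX- windows (38.9%, 33.5 to 44.6%). In gene bodies the shares were 41.3% of 1555 A3B-eGFP windows and 41.5% of 1340 DOX- windows, so their intervals overlapped. In long noncoding genes alone they were 36.4% and 35.0%, and outside both gene types 36.0% and 33.8%. Restricted to windows over 10 kb from DOX-, promoters stayed at 50.6% and gene bodies at 40.7%. Windows outside both gene types then had 41.2% (37.8 to 44.8%), above the 33.8% (31.5 to 36.2%) of DOX- windows there. Of the DRIP windows, 5.91% at promoters had an A3B-eGFP window (535 of 9060), against 1.27% in gene bodies (610 of 47938).

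The distance between summits showed how closely the marks lay. The median distance from an A3B-eGFP summit to the nearest DRIP summit was 736 bp (quartiles 239 and 2860.5 bp), against 911 bp (283 and 3886 bp) from a DOX- summit. It was 194 bp in windows with DRIP and 2177 bp in windows without, a split that the overlap rule fixes. A DRIP summit lay within 100 bp of 11.7% of A3B-eGFP summits and 12.9% of DOX- summits, and within 1000 bp of 56.7% and 52.0%. At the closest range the A3B-eGFP list thus did not exceed DOX-. From a DRIP summit the nearest A3B-eGFP summit was a median 203092 bp away.

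The density of DRIP summits fell steadily with distance from A3B-eGFP summits. It was 0.599 summits per kb within 50 bp, 0.414 at 250 to 500 bp, 0.337 at 1000 to 2000 bp and 0.143 at 20000 to 50000 bp, against 0.0303 over the genome. Around DOX- summits it was 0.720 within 50 bp, dropped to 0.336 at 100 to 250 bp, and was still 0.244 at 20000 to 50000 bp. The density around A3B-eGFP summits was above that around DOX- summits between 100 and 500 bp and below it in every other bin.

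**Figure D1:**
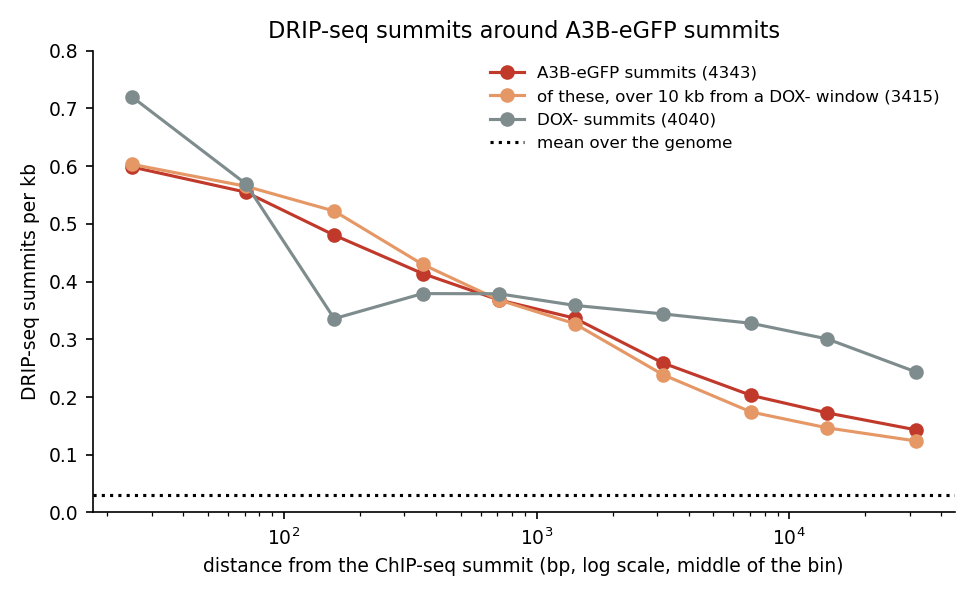
DRIP-seq summits per kb (y axis) against the distance from a ChIP-seq summit (x axis, log scale, bp, middle of each bin) for all 4343 A3B-eGFP summits, the 3415 over 10 kb from a DOX- window and the 4040 DOX- summits, with the mean over the genome as a dotted line. The density around A3B-eGFP was 0.599 within 50 bp and 0.143 at 20000 to 50000 bp, and it was above that around DOX- summits only between 100 and 500 bp.

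Promoters made up more of the windows that carried both marks than of any other class. Over 10 kb from DOX- windows, 34.6% of windows with DRIP and 25.8% of those without lay at promoters, against 7.25% of DOX- windows and 9.45% of DRIP windows without A3B-eGFP. Among the 1098 A3B-eGFP promoter summits, 187 fell in the 250 bp before the start and 325 in the 250 bp after it, with a median position 111.5 bp into the gene. DRIP promoter summits were spread more widely: 4.80% and 9.11% of 9060 fell in the same bins, their fullest bin was 250 to 500 bp into the gene (12.3%), and their median was 303.5 bp. Where both summits lay within 500 bp at a promoter, A3B-eGFP was the more upstream in 271 of 471 pairs (57.5%, 53.03 to 61.92%), and the median offset over all pairs was -58 bp (minus is upstream). In gene bodies 295 of 599 pairs (49.2%) had A3B-eGFP upstream, close to an even split.

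Transcript ends were a further place where the marks met. Of the windows with DRIP over 10 kb from DOX-, 406 of 1478 (27.5%, 25.3 to 29.8%) had their summit within 2 kb of the end of a protein-coding gene's Ensembl canonical transcript and away from starts, and 280 of these lay past the end. For A3B-eGFP without DRIP it was 293 of 1937 (15.1%, 13.6 to 16.8%), for DOX- 5.00% of 4040, and for DRIP without A3B-eGFP 7.15% of 90197. Exons were also more common: coding exons held 12.6% of summits with both marks, 7.28% of A3B-eGFP summits without DRIP, 3.42% of DOX- summits and 2.75% of DRIP summits without A3B-eGFP. Introns held 26.9%, 28.2%, 25.5% and 47.5% in the same order. Among DRIP windows, 33.8% of those with A3B-eGFP and 47.5% of those without were intronic, 8.90% and 2.75% lay in coding exons, and 24.2% and 7.15% lay near transcript ends.

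The base composition of the classes differed, given here for A3B-eGFP windows over 10 kb from DOX-. Windows with both marks had a median GC content of 59.8%, A3B-eGFP windows without DRIP 56.2%, DOX- windows 48.4%, DRIP windows without A3B-eGFP 46.4% and tiles of 500 bp set every 5 kb over the genome 40.0%. A GC box (GGGCGG on either strand), a motif bound by SP/KLF factors, was in 45.6%, 40.0%, 15.9%, 14.4% and 6.41% of them in the same order. At promoters it was in 73.8% of windows with both marks and 76.6% of A3B-eGFP windows without DRIP, so the classes differed little there. A quadruplex pattern, 4 runs of at least 3 G with 1 to 7 bases between them on either strand, was in 31.5%, 25.3%, 12.6%, 10.4% and 5.08%. The share of dinucleotides that were TC, or GA on the other strand, lay between 11.8% and 12.4% in all of these sets. This share was not adjusted for base composition, so it cannot be read against A3B's preference for TC.

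One motif went the other way. TGANTCA, the AP-1 motif bound by FOS and JUN proteins (the reverse complement has the same form), was in 24.9% (22.7 to 27.2%) of 1438 non-promoter A3B-eGFP windows without DRIP and in 13.5% (11.5 to 15.8%) of 967 with both marks, against 13.3% in DOX- windows and 11.1% in DRIP windows without A3B-eGFP. It was in 14.8% of genome tiles. Split by GC content, the shares without and with DRIP were 24.7% and 15.3% under 45% GC, 25.0% and 15.5% at 45 to 55%, and 28.7% and 11.8% at 55 to 65%. At 65% GC and over they were 15.7% (11.1 to 21.8%) and 12.2% (7.94 to 18.2%), and these intervals overlapped. The median distance from the motif to the summit was 89.5 bp without DRIP and 114.5 bp with DRIP. Without DRIP, 106 of the 358 windows that held it had it within 50 bp (29.6%, 25.1 to 34.5%). With DRIP it was 27 of 131 (20.6%, 14.6 to 28.3%), so the intervals for placement overlapped too. A match is a description of letters and no record of a bound factor.

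Strand asymmetry differed between promoter windows with and without an overlapping DRIP window. GC skew, the excess of G over C on the coding strand as a share of G plus C, was above 0 in 292 of 427 promoter windows with both marks (68.4%, 63.8 to 72.6%), in 230 of 429 with A3B-eGFP alone (53.6%, 48.9 to 58.3%), and in 67.0% of DRIP promoter windows without A3B-eGFP. In gene bodies the shares were 54.5%, 54.3% and 56.8%. A3B-eGFP promoter windows with DRIP, which overlap the hybrid list by definition, thus had a share near that list's, and those without a lower one. In 223 of the 738 promoters that held both summits no pair of windows overlapped, so windows without DRIP can lie in promoters with hybrids. Over 10 kb from DOX-, promoter windows with DRIP had a median position of 146 bp into the gene, those without 70 bp. The part of position was not tested.

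**Figure D2:**
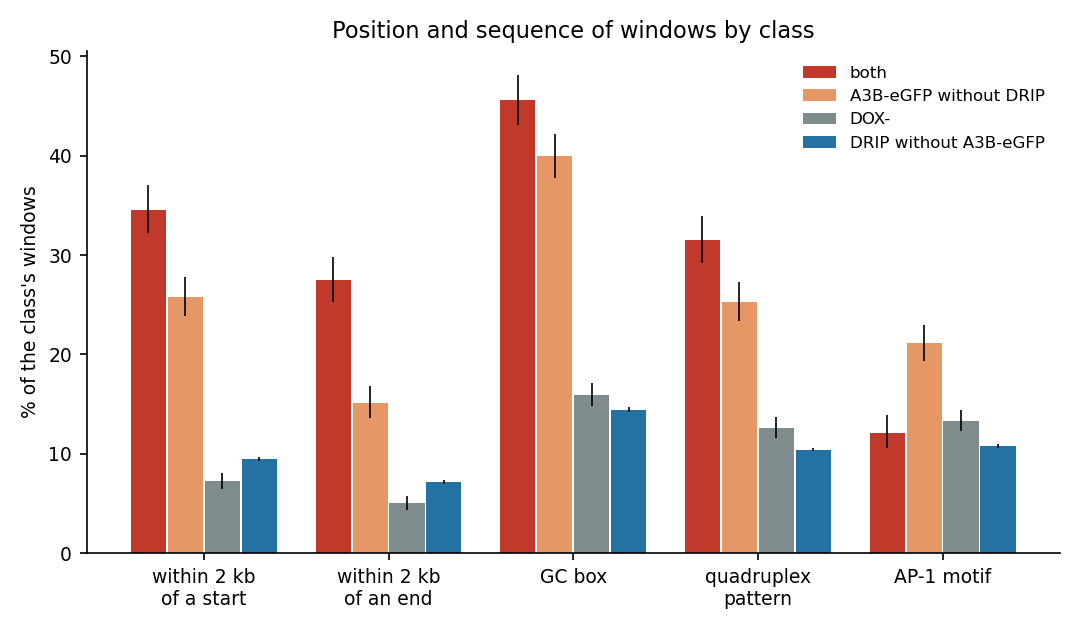
Share of windows (y axis, %, with 95% Wilson bars) within 2 kb of a protein-coding start, within 2 kb of a canonical transcript end, or holding a GC box, a quadruplex pattern or an AP-1 motif, for windows with both marks and A3B-eGFP windows without DRIP (both over 10 kb from DOX-), DOX- windows and DRIP windows without A3B-eGFP. The AP-1 motif is the one feature of the 5 that is highest without DRIP (21.1%, against 12.1% with DRIP over all positions).

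The presence of a hybrid varied little with the fold enrichment of the A3B-eGFP call and varied more with its pileup. Median fold enrichment was 2.94 in windows with DRIP and 3.04 in windows without, and median pileup 38 and 32. Ranked by fold enrichment into 10 equal groups, the lowest group had DRIP in 42.1% and the top group in 41.2%. Ranked by pileup, the lowest group had it in 23.9% and the top group in 47.2%. Over the 1807 windows with both, the fold enrichments of the pair had Spearman's rho of 0.03 and the pileups 0.34, given as a description, since a site's mappability and copy number enter both pileups. Among DRIP windows ranked by fold enrichment, 5.19% of the top group had an A3B-eGFP window, and the other 9 groups were flat, between 1.34% and 1.69%, with the lowest group at 1.69%. Ranked by pileup the share was 7.81% in the top group, 2.42% in the next and 0.337% in the lowest. Whether depth or local copy number plays a part was not tested.

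Windows with both marks were also called in other hybrid maps of the series. Of the 1807, 82.1% overlapped a window of the A3B knockout cells in DMSO, and 70.1% and 78.0% one of WT cells after 2 h and 6 h of the phorbol ester PMA. For the 2536 without DRIP these were 17.5%, 13.1% and 17.7%, and for DOX- windows 37.3%, 37.6% and 51.4%. The DOX- windows were not split by overlap with DRIP_WT_DMSO, so their shares cannot be set against either class. Part of the gap between the classes follows from that split, since the DRIP lists share many windows. Of the windows without DRIP, 1545 (60.9%) met no window in any of the 6 DRIP lists. DRIP windows with A3B-eGFP were in all 6 lists in 895 of 1697 cases (52.7%), against 34.7% of those without. Windows with both marks were thus called again more often than DRIP windows at large, of which 58.9%, 60.3% and 70.0% of those without A3B-eGFP met the same 3 lists. They were also the stronger DRIP calls, with a median fold enrichment of 4.91 against 4.30 in those without A3B-eGFP, and the part of call strength was not tested.

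At the level of genes nearly every gene with A3B-eGFP also held a hybrid. A gene holds a summit here that lies inside it or within 2 kb of its start. Of 19970 protein-coding genes, 1887 (9.45%) held an A3B-eGFP summit, 14003 (70.1%) a DRIP summit and 1769 (8.86%) both. That left 118 genes with A3B-eGFP alone, 12234 with DRIP alone and 5849 with neither. Genes with A3B-eGFP held DRIP in 93.7% (92.6 to 94.8%), those without in 67.7%, and the 328 with a DOX- summit in 82.3%. Gene length moved with this: in the shortest of 4 length classes the shares were 89.6% with and 37.4% without A3B-eGFP, in the longest 97.0% and 89.6%. Having both did not mean having them together, since 980 of the 1769 genes had an overlapping pair of windows (55.4%, 53.1 to 57.7%). In the other 789 the nearest summits were a median 2023 bp apart.

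The promoters alone gave a sharper split. A3B-eGFP was in 959 promoters (4.8% of all), DRIP in 6994 (35%) and both in 738. Promoters with A3B-eGFP held DRIP in 77.0% (74.2 to 79.5%), those without in 32.9%, and promoters with a DOX- summit in 61.4% of 166. Overlapping pairs were found in 515 of the 738 (69.8%). Of the 221 promoters with A3B-eGFP and no promoter DRIP, 149 had a DRIP summit elsewhere in the gene.

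Gene lists showed which genes carried both marks, and are read against the 9.45% of all genes with A3B-eGFP and 70.1% with DRIP. The highest share was among genes of basal epithelial identity and adhesion: 12 of 18 held both, 6 with overlapping windows, and the other 6 DRIP alone. Of 12 luminal epithelial genes none held A3B-eGFP and 6 held DRIP, and of 10 mesenchymal genes none and 8. These lists are too short to set the absence of A3B-eGFP apart from the 9.45% of all genes. Olfactory receptor genes, silent in epithelium, held both in 0 of 415, A3B-eGFP alone in 2 and DRIP alone in 34. All 16 R-loop factor genes held DRIP and 1 held A3B-eGFP, a number too small to set apart from the 12.6% of all genes with DRIP that hold it. This was RNASEH2C, a subunit of RNase H2, whose nearest summits were 12 bp apart.

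KRT5 and KRT14 encode the paired keratins of the basal layer, and ITGB4 the integrin of hemidesmosomes. KRT5 (chr12:52514575-52520530) had 7 A3B-eGFP windows with fold enrichments between 2.45 and 3.98, and 5 of the 7 summits were in coding exons. DRIP overlapped 5 of the 7, with the nearest summits 44 bp apart. ITGB4 had 7, of which 6 overlapped DRIP, and KRT14 had 2, both overlapping. CDH3, which encodes P-cadherin, had 1 window, 1154 bp from the nearest of its 27 DRIP summits. The annotated span of KRT86, a hair keratin gene outside the list, had 20, of which 14 overlapped DRIP, and its highest DRIP fold enrichment was 80.1. Of these 20, 13 lay before the start of its canonical transcript, where the pseudogene KRT87P is annotated with 10 windows, and 7 lay in introns. None of these genes had a DOX- summit.

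Nearly all genes of protein synthesis held hybrids, and fewer held A3B-eGFP. Of 86 ribosomal protein genes, 20 held both, 64 DRIP alone and 2 neither. A3B-eGFP was thus in 23.3% of them, above the 9.45% of all genes and the 12.6% of genes with DRIP. It was in 6 of their promoters, near the 4.8% of all promoters, and DRIP was in 70. The strongest A3B-eGFP windows of the family lay well inside or past the gene. The RPL27A window had a fold enrichment of 6.19 and lay 6134 bp from the start and 732 bp from a DRIP summit. Those of RPS24 (6.16) and RPS23 (5.80) lay 32 and 46 bp from a DRIP summit. Of 20 translation factor genes 8 held both and 12 DRIP alone. EEF1A1, the elongation factor that delivers aminoacyl-tRNA, had the highest value of the named genes over 10 kb from DOX-: 1 window had 9.61 and a pileup of 98, 1196 bp past the canonical end, with a DRIP summit 2 bp away. The other EEF1A1 windows behaved differently, as 7 of the 9 overlapped no DRIP window. EIF4A1, the helicase of translation initiation, had 5 windows at its start, all with DRIP. RPS12, which encodes a small subunit protein, had no A3B-eGFP window beside a DRIP fold enrichment of 151, the highest of the genes without A3B-eGFP, and RPL15 none beside 65.7.

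Histone genes held the largest group with A3B-eGFP and no hybrid. Of 63 core histone genes 24 held A3B-eGFP, 14 with DRIP and 10 without, and 23 of the 24 at the promoter. A promoter, 2 kb on both sides of the start, reaches past the end of genes as short as H4C5. H4C5 (fold enrichment 4.71, 216 bp from the start) and H4C3 (4.25) had their nearest DRIP summits 8840 and 8417 bp away. Of the 24 genes, 16 had windows over 10 kb from DOX-, and 8 had DOX- summits of their own, among them H2AC20. Histone genes are near-identical copies, so reads can be split or misplaced among them, and neighbours share windows: the 24 genes share 27 windows, 12 with DRIP. The 6 linker histone genes held both in 3. H1-2 had 2 windows, both overlapping DRIP, whose highest fold enrichment there was 93.3, and H1-4 had 1 at 3.06, 349 bp from a DRIP summit. H1-5 had DRIP alone at 49.1.

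Stress and signalling genes with A3B-eGFP held DRIP about as often as the 93.7% of all genes with A3B-eGFP. Of 33 immediate early genes 9 held both, 7 with overlapping windows, 15 DRIP alone, and 1 A3B-eGFP alone, which was ATF3, named after its values were seen. JUNB, an AP-1 subunit, had 2 windows with DRIP summits 106 and 465 bp away. FOS held DRIP alone. DUSP1, the phosphatase that switches off MAP kinases, had 5 windows, 4 with DRIP, and all within 10 kb of a DOX- window. Of 14 p53 target genes 5 held both, among them MDM2, the ligase that degrades p53 (5 windows, 3 with DRIP), and GADD45A, a DNA damage response gene (1 window, 83 bp). BBC3, again named after its values were seen, held A3B-eGFP alone. Of 12 amino acid response genes 5 held both. SLC7A5, a leucine transporter, had 7 intronic windows, 6 with DRIP.

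Of the 7 APOBEC3 genes, APOBEC3B held A3B-eGFP, with 2 windows at fold enrichments of 4.23 and 2.68 and no DRIP summit. It also had 3 DOX- summits, and both windows lay within 10 kb of DOX- windows. Of the other 6, 4 held DRIP alone.

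Genes with many windows fell into patterns that the counts per gene hide. TNS4 (tensin 4, a focal adhesion protein; chr17:40475828-40501623) had 31 A3B-eGFP windows with fold enrichments of 2.05 to 4.13 and a median of 2.82, of which 27 were intronic. DRIP overlapped 16 of the 31, at a median summit distance of 357 bp, and the 16 DRIP windows had fold enrichments of 2.43 to 11.5. The marks were thus interleaved along the whole gene. In the gene itself there was no DOX- summit, although 12 of the windows lay within 10 kb of a DOX- window.

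MCL1, a survival protein of the BCL2 family (chr1:150560895-150579738), had 17 A3B-eGFP windows at 1.91 to 4.02, 11 with DRIP. Only 1 was at the promoter, 244 bp into the canonical transcript at 2.72, and its nearest DRIP summit, 445 bp away, had the gene's highest DRIP fold enrichment (48.9). The other 16 lay past the canonical end, 470 to 12971 bp from it. The strongest hybrid was thus at the start of the gene and the strongest A3B-eGFP windows past its canonical end. Hybrids were there too: the strongest A3B-eGFP window (4.02) overlapped DRIP, with its summit 167 bp from a DRIP summit at 24.6.

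CPM, a membrane carboxypeptidase (chr12:68842197-68971570), was the opposite of TNS4. It had 25 A3B-eGFP windows at 2.98 to 6.77, and 1 overlapped DRIP. All lay 61645 to 87706 bp from the canonical start, with 10 in introns, 9 in an untranslated exon and 6 past the end, and all were over 10 kb from DOX- windows. The gene held 2 DRIP windows, at 5.14 and 5.44. NFE2L3, a transcription factor gene, had 10 windows, up to 6.64, 4 with DRIP.

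Some genes with many windows were near background or in copied sequence. PSG9, one of a cluster of closely related pregnancy glycoprotein genes, had 29 windows, 8 with DRIP, at low pileup (13 to 29). SLC16A3, a lactate exporter, had 26, of which 5 were over 10 kb from DOX-, and shared windows with its neighbour CSNK1D. NBPF14 (16 windows, 7 DOX- summits) and CROCC (14 windows, 1 over 10 kb from DOX-) lie in duplicated regions. Among 52 genes with 5 or more windows over 10 kb from DOX-, 3 had no window with DRIP, 32 had DRIP in at least 50% of them, and the median was 50.8%.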

How the data were processed

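The deposited lists hold 500 bp windows around MACS2 summits on hg38, with 3 values made by the authors: the pileup, a coverage signal at the summit, the fold enrichment ratio over the matching input, and −log10 of the q-value. Per the labels, reads were trimmed with Cutadapt 1.13, aligned with STAR 2.6.1d, filtered with SAMtools 1.3.1, Picard and bedtools 2.29.2, and called with MACS2 at q below 0.01 (the labels name version 2.2.6; the study's methods name another). No read totals were given, so the depth behind each list is unknown, and a window absent from a list may be one that its depth could not call. Whether starts count from 0 or 1 was not given, which moves distances by at most 1 bp.

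Windows were grouped by overlap of at least 1 bp, and genes by summits between 2 kb before the start and the end, with GENCODE 44. For genes shorter than 2 kb, summits up to 2 kb past the start counted too. Sequence was read from hg38. The code for overlaps, nearest distances and gene assignment was tested on simulated windows, and the sequence measures were not. Overlaps were also computed with bedtools 2.31.1. Python 3.11.15, numpy 2.4.6 and pandas 2.3.3 were used. With 1 library per condition no test was run. Some sequences are not reported here. Named genes were those with the most windows, the highest fold enrichments, the 4 leading members of each gene list, and genes the study singles out by DRIP or ChIP; a rule for windows over 10 kb from DOX- was added after the data were seen. The members, the gene lists and these rules were chosen with earlier results of these data known. The alternatives were stricter q-values, other treatments of DOX- windows, the knockout DRIP list, merged peaks, a larger overlap, starts alone and all annotated genes.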

Additional observations from a re-analysis of the deposited data

How the results depend on the processing

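The values at stake are the share of A3B-eGFP windows with DRIP (41.6%), the share of DRIP windows with A3B-eGFP (1.85%), the share of genes with A3B-eGFP that hold DRIP (93.7%), the share of genes with both that have an overlapping pair (55.4%), and the median distance to DRIP (736 bp). Of 41 alternative values, 14 stayed within the counting error. With A3B-eGFP windows at −log10 q of at least 5 they were 45.4% and 0.961% of windows, 58.1% of genes with a pair and 606 bp. With DRIP windows at that limit they were 35.2%, 2.22%, 89.8%, 51.0% and 1044 bp. With no window left out they were 43.7%, 2.61% and 656 bp, and with windows within 1 kb of DOX- also left out 1.66% of DRIP windows had A3B-eGFP. With the knockout DRIP list they were 44.4%, 95.1% of genes and 633 bp. With windows of a peak merged they were 44.1%, 1.59% and 1296 bp. An overlap of at least 250 bp gave 25.8%, 1.17% and 39.5%. Starts alone gave 77.0% of genes with DRIP and 69.8% with a pair, and all annotated genes 88.6%. With windows over 10 kb from DOX- alone, an alternative chosen after seeing the data, the shares were 43.3% and 1.51%.

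Both shares of windows thus moved with the q-value limits and with the overlap asked for. No paired analysis was possible because each condition had 1 library. Unknown depth limits every absence of a window, and ChIP and DRIP libraries came from different cells. Summits within a peak are not independent, so the intervals are too narrow for peaks with several windows.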

Other observations

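Long noncoding genes gave values that belong in no comparison above, and those named here were chosen after their values were seen. Of 18756 annotated long noncoding genes, 619 held both summits, 107 A3B-eGFP alone and 6174 DRIP alone. NEAT1, the scaffold RNA of paraspeckles (chr11:65422774-65445540), held 27 A3B-eGFP windows, 12 of them overlapping DRIP, with 13 over 10 kb from DOX- and 1 DOX- summit. SNHG29, a small nucleolar RNA host gene, held 11 windows, 8 with DRIP, and MIRLET7BHG, the host of let-7 microRNAs, 14, 7 with DRIP. PCAT1, upstream of MYC, held 21 windows, 3 with DRIP. CASC19 lies within the span of PCAT1, and its 19 windows, 2 with DRIP, are among those 21. Neither gene had a DOX- summit.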
